A study of Mus musculus with 6 samples.

Results

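S100 proteins and annexins were followed through 10 genes, of 36811 in the table, in regulatory T cells (Treg) sorted from mouse spleen. The members were S100a4, S100a6, S100a10, S100a11, S100a13, Anxa1, Anxa2, Anxa4, Anxa5 and Anxa6, taken as the rows whose Ensembl identifier carries these symbols, and all 10 were found. S100a8 and S100a9 were set aside as granulocyte genes and appear only as markers. RNA sequencing covered 6 libraries of EGFP+ Treg from mice of strain C57BL/6, 18 to 21 weeks old. The 3 cKO libraries came from animals of genotype Bach2fl/fl Foxp3EGFP-Cre-ERT2 and the 3 WT libraries from animals of genotype Bach2+/+ Foxp3EGFP-Cre-ERT2. Both groups thus carried EGFP and the inducible recombinase Cre-ERT2 at Foxp3, so that the recombinase is made in Treg. Bach2 is a repressor of transcription, and the question put by the groups is how its loss alters gene expression in Treg. The submitters' design text describes other material, Treg with high or low Bach2 from reporter mice, whereas the series title and the labels of each sample give WT and Bach2-deficient cells; the labels were followed here. The tamoxifen dosing that Cre-ERT2 needs is not given in the sources used here, nor is whether replicate libraries were made from different animals; the p-values therefore reflect library-to-library spread, which may be technical.

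S100 proteins are small calcium sensors with EF-hand motifs that mostly work as dimers, changing shape on calcium binding and then gripping target proteins such as myosin, annexins and ubiquitin ligase adaptors. Annexins are cytosolic proteins that dock on negatively charged membrane lipids when calcium rises, where they take part in vesicle traffic, membrane repair and the organisation of cortical actin. The families meet directly, since S100a10 pairs with Anxa2 and S100a11 with Anxa1. In T cells, several of these genes are known as markers of activated, effector and memory states and are low in naive cells.

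Of the 10 members, 6 lie on chromosome 3. S100a4, S100a5 and S100a6 follow each other directly there in the RefSeq gene order, and S100a13 overlaps the start of S100a1. S100a10 and S100a11 are separated by Gm29950. Stretches before the start of 4 members are shown because Bach2, together with small Maf proteins, is known to bind elements with the core TGAGTCA, which is also the site of AP-1. The sequences are the 250 bases before the transcript start in RefSeq on GRCm38.p6, 5′ to 3′ on the gene's strand, in lower case with TGAGTCA or its other strand TGACTCA in capitals. S100a11 (chr3:93520246-93520495, + strand) and Anxa2 (chr9:69453433-69453682, + strand) hold the element, while S100a6 (chr3:90612644-90612893, + strand) and S100a4 (chr3:90603520-90603769, + strand) do not within this window.
S100a11: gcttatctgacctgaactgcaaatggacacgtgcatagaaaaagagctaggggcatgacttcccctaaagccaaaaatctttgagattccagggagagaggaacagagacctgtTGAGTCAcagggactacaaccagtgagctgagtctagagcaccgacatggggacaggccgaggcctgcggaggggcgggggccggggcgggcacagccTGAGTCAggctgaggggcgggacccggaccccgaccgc
Anxa2: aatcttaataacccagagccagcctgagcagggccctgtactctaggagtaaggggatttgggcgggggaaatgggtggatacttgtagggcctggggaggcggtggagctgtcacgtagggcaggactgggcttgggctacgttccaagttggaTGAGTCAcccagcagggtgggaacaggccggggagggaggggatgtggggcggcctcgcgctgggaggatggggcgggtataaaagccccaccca
S100a6: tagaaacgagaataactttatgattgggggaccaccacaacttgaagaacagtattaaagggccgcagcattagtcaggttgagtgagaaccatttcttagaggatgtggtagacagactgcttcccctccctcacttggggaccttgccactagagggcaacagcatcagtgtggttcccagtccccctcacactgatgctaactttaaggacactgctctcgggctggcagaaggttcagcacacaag
S100a4: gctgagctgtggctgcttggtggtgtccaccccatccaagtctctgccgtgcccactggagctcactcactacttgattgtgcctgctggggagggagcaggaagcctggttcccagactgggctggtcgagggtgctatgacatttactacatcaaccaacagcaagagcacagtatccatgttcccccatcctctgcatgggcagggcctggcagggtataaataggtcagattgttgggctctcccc
The S100a11 stretch holds TGAGTCA 2 times, beginning 136 and 38 bases before the start, and the Anxa2 stretch holds it 1 time, 95 bases before the start. Of 32851 RefSeq promoter windows of the same length, 4.46% hold the element on either strand and 0.167% hold it at 2 or more places. Promoter sequence was matched for 8 members, and those of S100a13, Anxa1, Anxa4 and Anxa5 hold no TGAGTCA in these 250 bases. No promoter sequence was matched for S100a10 and Anxa6, so these were not examined. As a check, bases just after each start were sought in annotated transcripts of the gene. They were not found for S100a4, S100a13 and 1 of the Anxa4 windows, so those starts are less certain. A match of letters is a description and not a measured binding site.

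Levels are given in FPKM, fragments scaled by transcript length and library size, which allows comparison between genes per length. The sums of FPKM lay between 1502822 and 1940807, and the scale from fragments to FPKM, estimated from the steps between low values, between about 3030000 and 5010000 fragments. The 7 Treg markers Foxp3, Il2ra, Ctla4, Ikzf2, Cd4, Cd3e and Tnfrsf18 were above 0 in all 6 libraries. The Bach2 row (ENSMUSG00000040270) held 7.88, 9.19 and 6.44 FPKM for cKO 1, 2 and 3, against 3.29, 8.25 and 4.80 FPKM in WT 1, 2 and 3. Transcript of the targeted gene was thus not lower in the libraries labelled cKO, with an adjusted p of 0.925 by limma, and each direction below rests on the sample labels alone, which the design text does not match. The value covers the whole gene, and the deleted part is not given in the sources used here. Granulocyte markers were present as well, with a sum over 10 genes of 416, 981 and 154 FPKM in cKO 1, 2 and 3, against 299.9, 306 and 169 FPKM in WT 1, 2 and 3. The sum over 11 myeloid markers was 307, 429 and 308 FPKM in the libraries labelled cKO, against 292, 261 and 288 FPKM in those labelled WT. The remaining lists, in sums over their genes, ran from 119 to 159 against 106 to 152 FPKM for B cells, from 27.6 to 30.5 against 27.5 to 32.6 FPKM for CD8 and NK cells, from 129.5 to 279 against 33.9 to 113 FPKM for erythroid cells and from 0.479 to 2.27 against 0.266 to 1.29 FPKM for platelets (libraries labelled cKO against WT). The myeloid sums and the erythroid sums did not overlap, with each library labelled cKO above each labelled WT. Their part in the members' differences was not tested. Every one of these marker genes was above 0 in some library. In bulk libraries a larger share of cells of a type and more RNA per cell cannot be told apart.

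The 10 members ran from moderate to very high levels in these Treg. S100a10 was the most abundant, with 1455 to 2236 FPKM over the 6 libraries, and only 0.63% of the 11979 genes averaging 1 FPKM or more stood above it. Anxa6 followed with 632 to 902 FPKM, then S100a11 with 261 to 677, S100a4 with 179 to 411, S100a6 with 126 to 479, Anxa5 with 139 to 176, S100a13 with 74.0 to 259 and Anxa2 with 78.4 to 149 FPKM. Anxa4 and Anxa1 formed the low end, with 16.7 to 35.8 and 12.9 to 32.0 FPKM. The step from S100a10 to Anxa6 and the step from Anxa2 to Anxa4 were larger than the spread, with ranges that did not overlap. All other neighbours in this order overlapped in range, and S100a13 was above Anxa2 in only 3 of 6 libraries, as Anxa4 was above Anxa1. In fragments, the members rested on estimates from 44 to 123 for Anxa4 and 77 to 230 for Anxa1 up to 6189 to 8066 for Anxa6. These estimates use the shortest annotated coding transcript and are rough where lengths differ, as for Anxa4 with coding transcripts of 684 to 2030 bases and Anxa5 with 527 to 1731 bases.

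**Figure D1:**
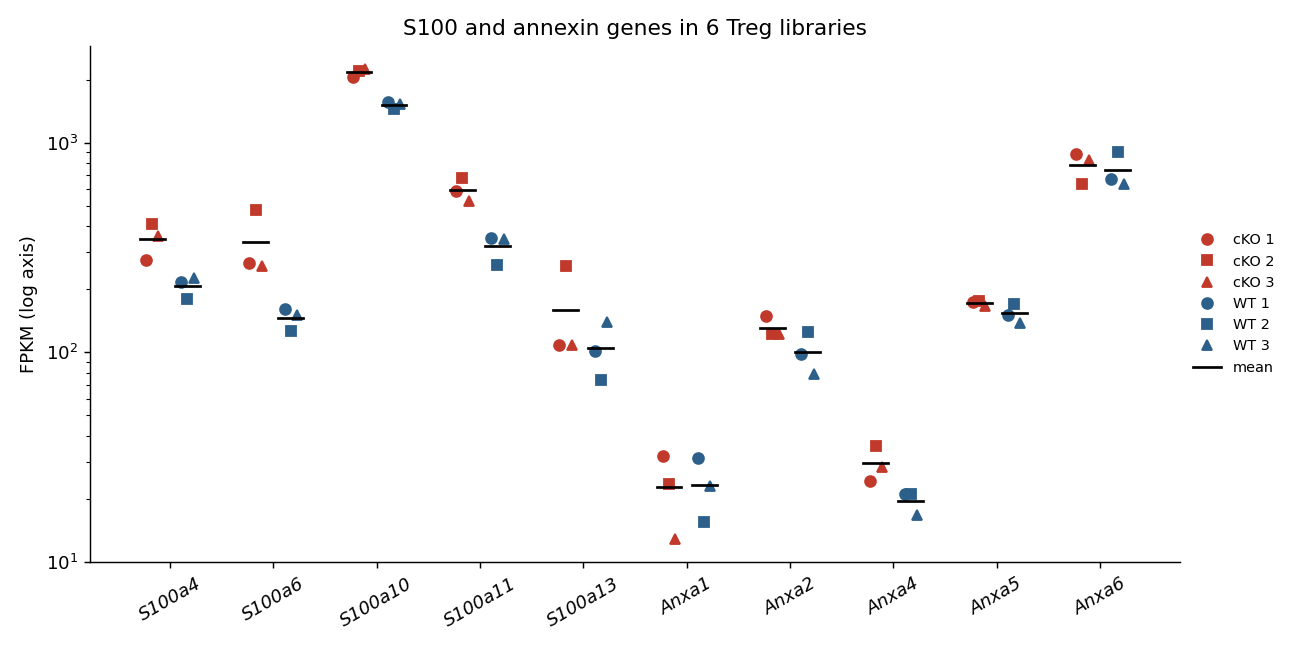
FPKM of the 10 genes (log axis) in each library, with cKO 1 to 3 in red at the left and WT 1 to 3 in blue at the right of each gene and a bar at the mean of 3. S100a4, S100a6, S100a10, S100a11 and Anxa4 have all 3 cKO values above all 3 WT values, and the other genes overlap.

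In 4 of the 5 S100 members and 1 of the 5 annexin members every cKO library lay above every WT library, and no member passed the adjusted test. In 9 of 10 members the log2 difference between cKO and WT was above 0, as it was in 55.0% of all genes tested, and the members' median was 0.51 on the log2(FPKM + 1) scale, against 0.03 for all genes. The groups did not overlap in 5 members, each higher in the libraries labelled cKO, where 6.96% of all genes tested had such a pattern. No member was lower without overlap, a pattern shown by 3.75% of genes. By limma with Benjamini-Hochberg adjustment over 11979 genes no member passed an adjusted p of 0.05, a threshold passed by 0.0250% of genes (0.00835% higher and 0.0167% lower). At an unadjusted p under 0.05 there were 5 members higher and 0 lower, where 3.59% of genes were higher and 1.78% lower. That split of all genes, 430 higher and 213 lower, depended on the scaling, with 770 higher and 96 lower at equal sums of FPKM and 341 higher and 277 lower after quantile normalization; the members counted were then 6 and 5, all higher. The members were chosen with earlier results of these data known, among them those for S100a4 and S100a6, so these counts describe the list.

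S100a11, a dimer that binds Anxa1 and takes part in membrane repair and growth control, had the smallest p of the members and ranked 19 among all genes tested. It stood at 588, 677 and 525 FPKM in cKO 1, 2 and 3, against 349.5, 261 and 349 FPKM in WT 1, 2 and 3. Every cKO library lay above every WT library, with a gap wider than the spread within WT. The means were 597 ± 76.3 FPKM in the libraries labelled cKO and 319.9 ± 50.9 FPKM in those labelled WT (SD, n = 3 each), a ratio of 1.87. The log2 difference was 0.90 (SE 0.173, 95% interval 0.49 to 1.32), with an adjusted p of 0.748 by limma. S100a11 has 5 annotated processed pseudogenes that match it at 90.6% to 99.0% identity, of which 4 have a row, so reads can be split among copies. The copy with the highest values, Gm12854, with 99.0% identity over 297 bases, had 35.6, 69.9 and 17.3 FPKM in cKO 1, 2 and 3, against 20.8, 19.7 and 23.8 FPKM in WT 1, 2 and 3. Added to S100a11 it gave 623, 747 and 543 FPKM against 370.3, 281 and 373 FPKM, and the groups still did not overlap.

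S100a6, or calcyclin, a sensor raised in dividing cells, had the largest difference of the members. It stood at 267, 479 and 258 FPKM in cKO 1, 2 and 3, against 160.2, 126 and 151 FPKM in WT 1, 2 and 3. The groups did not overlap, and cKO 2 stood far above cKO 1 and cKO 3. The means had a ratio of 2.30, and the log2 difference was 1.14 (SE 0.2599, 95% interval 0.52 to 1.76), with an adjusted p of 0.846 by limma and rank 49 among all genes tested. Without cKO replicate 2 the log2 difference was 0.85.

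S100a4, known as metastasin, binds the heavy chain of non-muscle myosin IIA and is a familiar transcript of effector and memory T cells. Its level was 275, 411 and 360.3 FPKM in cKO 1, 2 and 3, against 216, 179 and 227 FPKM in WT 1, 2 and 3. All cKO libraries were above all WT libraries, with cKO 1 the nearest to them. The means were 349 ± 69.1 FPKM and 208 ± 25.1 FPKM (SD, n = 3 each, cKO and WT), and the log2 difference was 0.73 (SE 0.187, 95% interval 0.29 to 1.18). The adjusted p was 0.846 by limma, at rank 87 among all genes tested. S100a5, the gene between S100a4 and S100a6, was listed at 0 in all 6 libraries. An annotated transcript of Gm42674 matches S100a4 at 100% identity over 302 bases. Gm42674 had no row, so its level is not known.

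S100a10, or p11, has lost calcium binding and stays in its active shape, and with Anxa2 it forms a complex at the plasma membrane that carries ion channels and plasminogen. It stood at 2066, 2195 and 2236 FPKM in cKO 1, 2 and 3, against 1563, 1455 and 1536 FPKM in WT 1, 2 and 3. The replicates lay close together, with a coefficient of variation of 4.09% in the libraries labelled cKO and 3.72% in those labelled WT, the tightest of the S100 members. The ratio of means was 1.43, and the log2 difference was 0.51 (SE 0.129, 95% interval 0.20 to 0.82). The adjusted p was 0.846 by limma, at rank 78 among all genes tested.

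S100a13, which assists the release of cytokines that lack a signal peptide, did not separate the groups. It stood at 108, 259 and 109 FPKM in cKO 1, 2 and 3, against 102, 74.0 and 139 FPKM in WT 1, 2 and 3. The high mean of the libraries labelled cKO came from cKO 2, and the other two lay within the WT range. The log2 difference of 0.51 had a 95% interval from -0.43 to 1.46 and an adjusted p of 0.925 by limma, and it was 0.096 without cKO replicate 2. S100a1, which overlaps S100a13 in the annotation, reached at most 3.24 FPKM; the strand setting of the counting is not given in the sources used here.

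**Figure D2:**
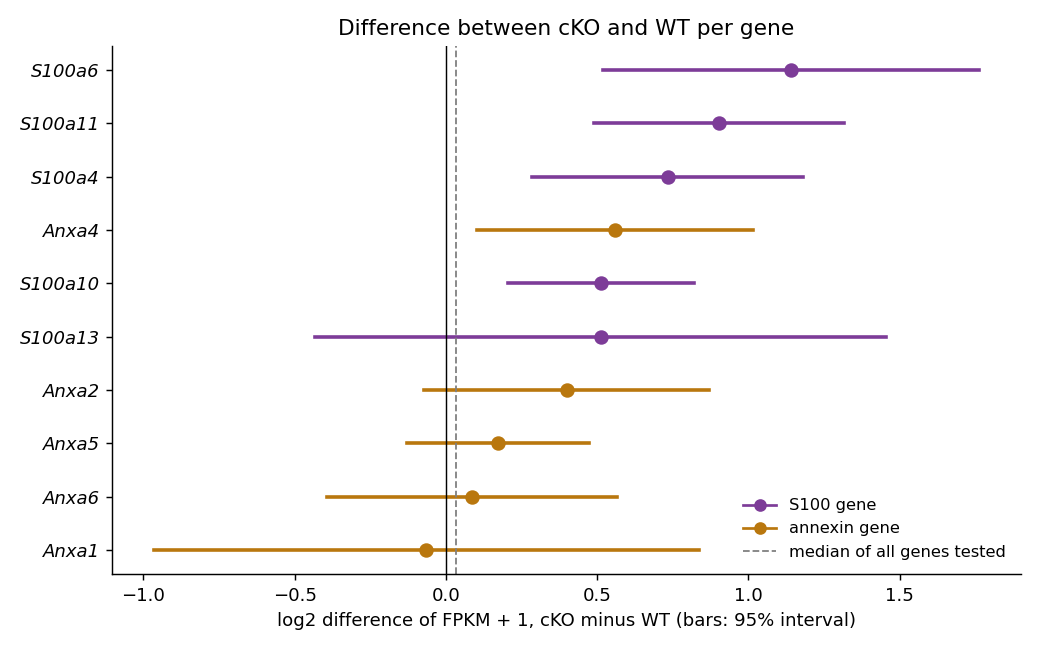
Log2 difference of FPKM + 1, cKO minus WT, for each gene with its 95% interval (limma), S100 genes in purple and annexin genes in orange, with 0 as a solid line and the median of all genes tested (0.03) dashed. The intervals of S100a6, S100a11, S100a4, Anxa4 and S100a10 lie above 0, and those of the other 5 genes include it.

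Among the annexins Anxa4 alone had groups that did not overlap. Anxa4, an annexin that binds and aggregates membranes, stood at 24.2, 35.8 and 28.4 FPKM in cKO 1, 2 and 3, against 21.0, 21.0 and 16.7 FPKM in WT 1, 2 and 3. The lowest cKO library lay only slightly above the highest WT libraries. The means were 29.5 ± 5.86 FPKM and 19.6 ± 2.49 FPKM (SD, n = 3 each, cKO and WT), and the log2 difference was 0.56 (SE 0.191, 95% interval 0.10 to 1.01), with an adjusted p of 0.915 by limma. Its unadjusted p was above 0.05 without cKO replicate 2 (0.0608), cKO replicate 3 (0.0537) or WT replicate 3 (0.0773).

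Anxa2, the partner of S100a10, stood at 149, 122 and 122 FPKM in cKO 1, 2 and 3, against 98.3, 125 and 78.4 FPKM in WT 1, 2 and 3. WT 2 lay among the cKO libraries, and the other WT libraries were lower. The log2 difference was 0.40 (95% interval -0.071 to 0.87), with an adjusted p of 0.925 by limma. Without WT replicate 2 it was 0.57 and without WT replicate 3 it was 0.23. The Anxa2 level was 7.21%, 5.55% and 5.47% of the S100a10 level in cKO 1, 2 and 3, against 6.29%, 8.59% and 5.10% in WT 1, 2 and 3. S100a10 transcript thus far exceeded Anxa2 transcript per length in each library, and the ratios of the groups overlapped. The mean log2 ratio was -4.05 ± 0.224 and -3.94 ± 0.378 (SD, n = 3 each, cKO and WT), a difference of -0.11 with p = 0.7 in a two-sided exact permutation test over 20 splits, whose smallest possible p is 0.1. The difference was 0.09 without WT replicate 2.

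The remaining annexins overlapped between the groups. Anxa5, which binds exposed phosphatidylserine and is the usual label of dying cells, had 174, 176 and 166 FPKM in cKO 1, 2 and 3, against 151, 171 and 139 FPKM in WT 1, 2 and 3. Its log2 difference was 0.17 (95% interval -0.13 to 0.47), with an adjusted p of 0.925 by limma. Anxa5 was the steadiest of the annexin members, with a coefficient of variation of 3.14% in the libraries labelled cKO and 10.6% in those labelled WT. Anxa6, the annexin with a duplicated core that acts in cholesterol and vesicle traffic, stood at 883, 632 and 826 FPKM in cKO 1, 2 and 3, against 674, 902 and 634 FPKM in WT 1, 2 and 3. Its highest library was WT 2 and its lowest cKO 2, the reverse of S100a4, S100a6, S100a11 and S100a13, which were highest in cKO 2 and lowest in WT 2. The log2 difference of Anxa6 was 0.086 (95% interval -0.39 to 0.57), with an adjusted p of 0.977 by limma. Anxa1, the glucocorticoid-induced annexin that signals through formyl peptide receptors, was the exception in sign, at 32.0, 23.5 and 12.9 FPKM in cKO 1, 2 and 3, against 31.4, 15.6 and 23.04 FPKM in WT 1, 2 and 3. Each group spread over a wide range, and the log2 difference was -0.065 (95% interval -0.97 to 0.84), with an adjusted p of 0.996 by limma. With libraries scaled to equal sums of FPKM it was 0.086, and with quality weights per library it was -0.62. Summed per library, the 5 S100 members gave 3304, 4022 and 3489 FPKM in cKO 1, 2 and 3, against 2391, 2095 and 2402 FPKM in WT 1, 2 and 3. The 5 annexin members gave 1263, 989 and 1156 FPKM, against 975, 1234 and 891 FPKM. The S100 sums did not overlap and the annexin sums did, and the difference between the families was not tested. In every library S100a10 made up most of the S100 sum and Anxa6 most of the annexin sum, so the sums mainly reflect these genes.

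Of the 10 members, 6 had their highest value in cKO 2 and 5 their lowest in WT 2, so these libraries weigh on several results. They were also the technical extremes, with fragment scales of about 5010000 in cKO 2 and 3030000 in WT 2, and with 32.65% and 47.43% of the summed FPKM in the 4 highest rows (cKO 2 and WT 2). The part of depth and of these rows in the results was not tested. The library cKO 2 also held the most granulocyte transcript. S100a8, which with S100a9 forms the calprotectin of neutrophils, stood at 152, 545 and 74.6 FPKM in cKO 1, 2 and 3, against 113, 123 and 86.8 FPKM in WT 1, 2 and 3. S100a9 had 128, 245 and 55.6 FPKM in cKO 1, 2 and 3, against 100.2, 94.6 and 45.8 FPKM in WT 1, 2 and 3. S100a8 and the summed granulocyte list were lowest in cKO 3 of all 6 libraries and S100a9 was lowest in WT 3, while the myeloid sum of cKO 3 was above that of every WT library. Of the 10 granulocyte markers, 9 were tested and all 9 had a log2 difference above 0, with none passing. Of the 11 myeloid markers, 7 were tested, 6 of them above 0 and none passing. Without cKO replicate 2 the log2 difference was 0.60 for S100a4, 0.50 for S100a10, 0.81 for S100a11 and 0.41 for Anxa4. The part of granulocyte and myeloid RNA in the members' differences was not tested beyond these values.

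Lists of T cell state also differed in their sums. The 14 markers of effector Treg, known from earlier results of these data, summed to 1902, 2243 and 2105 FPKM in cKO 1, 2 and 3, against 1418, 1282 and 1304 FPKM in WT 1, 2 and 3. All 14 had groups that did not overlap, higher in the libraries labelled cKO, where 6.96% of all genes tested had such a pattern. None of the 14 passed an adjusted p of 0.05 by limma. The list was chosen with results of these data known, so this count describes the choice and is no independent evidence. The 5 markers of naive T cells, a list also chosen with earlier results known, summed to 783, 830.1 and 871 FPKM in cKO 1, 2 and 3, against 1189.5, 1441 and 1271 FPKM in WT 1, 2 and 3. All 5 had a log2 difference below 0, but Lef1 (-0.18) and Tcf7 (-0.053) had groups that overlapped. Of the 5, 1 passed, Igfbp4, with a log2 difference of -1.88 and an adjusted p of 0.00929 by limma. Igfbp4 gave 80.7, 91.5 and 74.1 FPKM of the sums in cKO 1, 2 and 3, against 301, 313 and 294 FPKM in WT 1, 2 and 3. The part of T cell state in the members' differences was not tested.

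**Figure D3:**
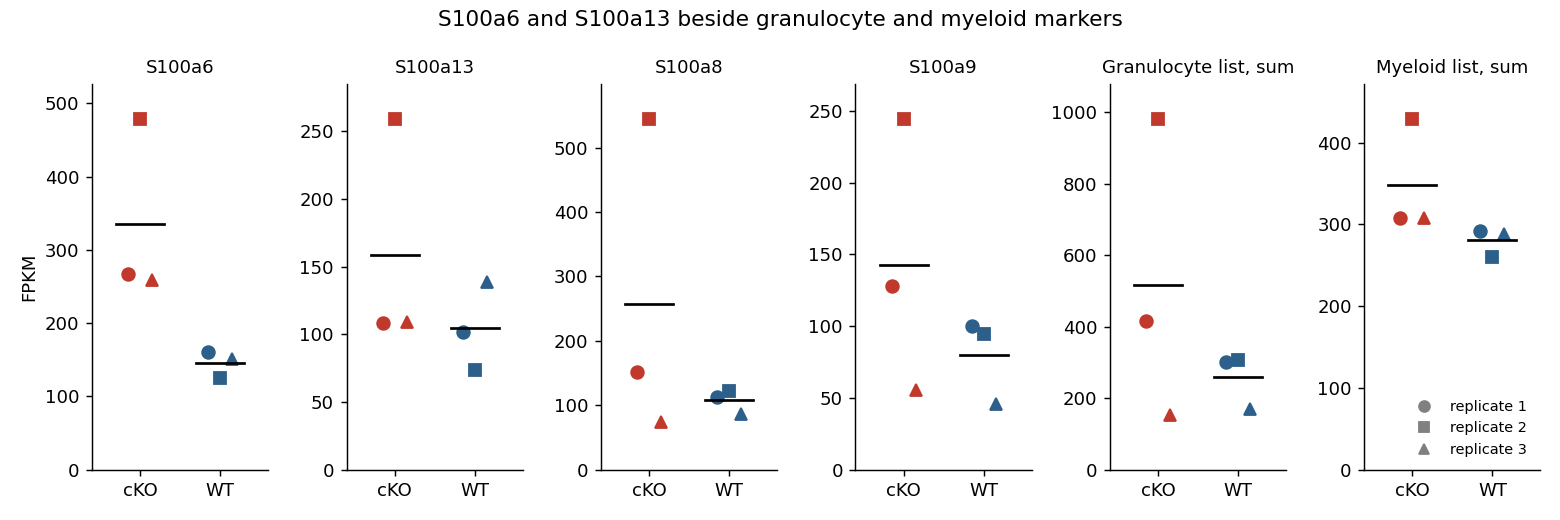
FPKM of S100a6 and S100a13 beside the granulocyte genes S100a8 and S100a9 and the summed granulocyte and myeloid marker lists, with the libraries labelled cKO at the left and those labelled WT at the right of each panel, bars at the mean of 3 and axes from 0. Library cKO 2 is the highest in every panel, and S100a6 and the myeloid sum are above all WT libraries in cKO 1 and cKO 3 as well.

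With each library left out in turn, S100a4, S100a6, S100a10 and S100a11 kept an unadjusted p under 0.05 and a log2 difference above 0. Their log2 differences ran from 0.60 to 0.90, from 0.85 to 1.30, from 0.48 to 0.55 and from 0.76 to 0.99. S100a10 moved least. S100a13 ran from 0.096 to 0.74, and Anxa1 and Anxa6 fell on both sides of 0. None of the 10 members reached an adjusted p of 0.05 in any of these 6 fits.

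**Figure D4:**
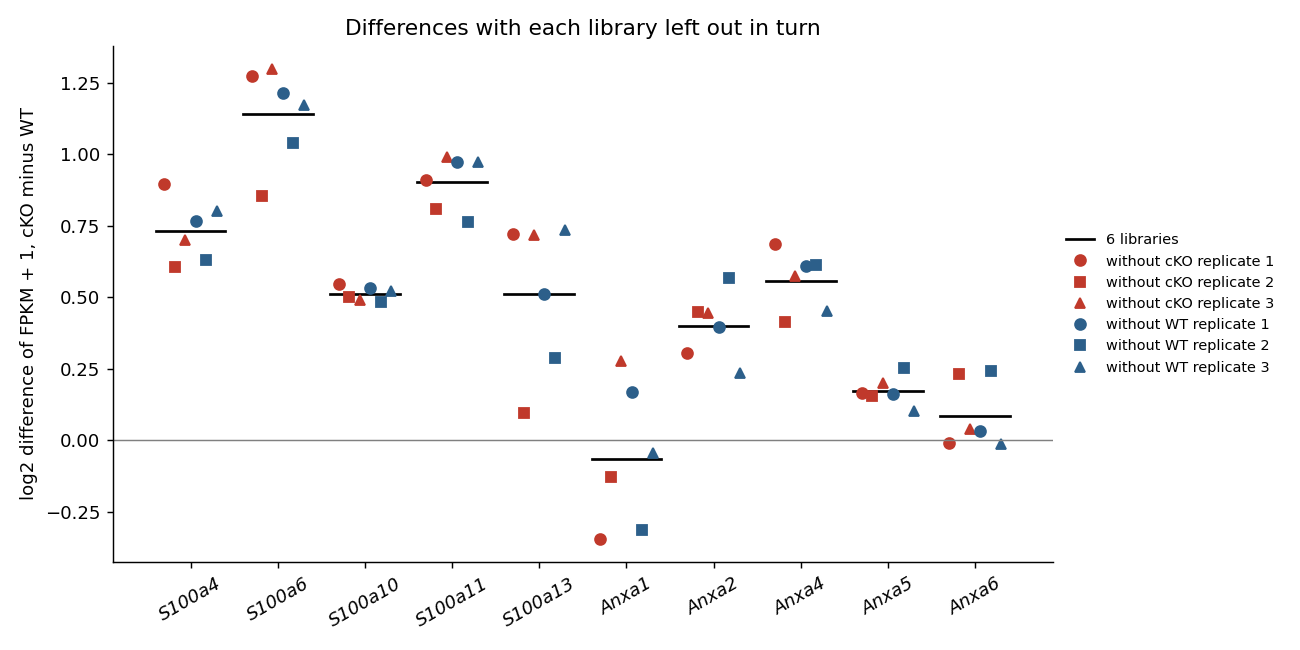
Log2 difference of FPKM + 1, cKO minus WT, for each gene with each library left out in turn (points) and with all 6 libraries (bar). S100a4, S100a6, S100a10 and S100a11 stay above 0.4 in every fit, S100a13 drops to 0.096 without cKO replicate 2, and Anxa1 and Anxa6 cross 0.

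Most other genes of both families were listed at 0 or had low values. Of 17 further genes with a row, all of the S100 and annexin families except the S100-binding S100pbp, 9 were listed at 0 in all 6 libraries and 3 had a mean under 1 FPKM. The 5 tested were S100a1, S100a3, S100pbp, Anxa7 and Anxa11, 3 of them above 0 in log2 difference, as were 55.0% of all genes tested. None had groups apart, and none had an unadjusted p under 0.05 by limma. Anxa7, an annexin of secretion, stood at 51.4, 42.8 and 36.2 FPKM in cKO 1, 2 and 3, against 36.1, 43.7 and 32.9 FPKM in WT 1, 2 and 3. Anxa11, an RNA granule annexin, stood at 37.0, 16.7 and 26.7 FPKM in cKO 1, 2 and 3, against 30.3, 29.8 and 31.4 FPKM in WT 1, 2 and 3. S100a3, near S100a4 on the chromosome with S100a2 between them, was listed at 0, 5.77 and 2.29 FPKM, against 0.4, 0 and 0.914 FPKM. S100pbp, a nuclear protein that binds an S100 protein, stood at 14.1, 6.65 and 13.5 FPKM, against 5.83, 9.77 and 6.47 FPKM.

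No binding partner or receptor tested passed the threshold. Of 18 listed, 12 were tested, with a median log2 difference of 0.098. Of these, 7 had a log2 difference above 0, as did 55.0% of all genes tested. None had an unadjusted p under 0.05 by limma. Ahnak, the giant scaffold bound by the S100a10 and Anxa2 complex, stood at 44.0, 40.9 and 37.1 FPKM in cKO 1, 2 and 3, against 34.2, 32.3 and 41.1 FPKM in WT 1, 2 and 3. Myh9, the myosin heavy chain bound by S100a4, stood at 61.1, 35.9 and 41.1 FPKM, against 55.9, 62.9 and 49.3 FPKM, a log2 difference of -0.31 (95% interval -0.83 to 0.22). Cacybp, which links S100a6 to a ubiquitin ligase, had a log2 difference of 0.096 (95% interval -0.20 to 0.39). Plscr1, a phospholipid scramblase family member, was the 1 partner of the 12 tested whose groups did not overlap, where 6.96% of all genes tested were higher without overlap. It stood at 26.1, 37.1 and 28.2 FPKM, against 22.2, 23.3 and 23.4 FPKM, with an adjusted p of 0.925 by limma. The receptors of Anxa1 were near or at 0, with Fpr1 at no more than 1.08 FPKM, Fpr2 at no more than 1.13 FPKM and Fpr3 listed at 0 in all 6 libraries. Ager, a receptor of extracellular S100 proteins, was at most 0.556 FPKM in 5 libraries and 12.8 FPKM in WT 2.

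The genes nearest in profile were sought for S100a11, S100a6 and S100a10, the 3 members with the smallest p, by the Euclidean distance between log2(FPKM + 1) profiles centred on each gene's mean over the 6 libraries. For S100a11 they were Spc24 at a distance of 0.258, Gm7308, Tmem191c, Lgals1 and Prim1 at 0.406. For S100a6 they were Mylpf at 0.398, Hist1h1e, Asb2, Gm49339 and Pim1 at 0.545. For S100a10 they were Pqlc3 at 0.112, Cenpa, Tox4, Prr13 and Cul5 at 0.163. A flat profile would lie at 1.19 from S100a11, 1.59 from S100a6 and 0.638 from S100a10. Lgals1, the galectin-1 gene, at a distance of 0.386, stood at 549, 793 and 562 FPKM in cKO 1, 2 and 3, against 454, 312 and 436 FPKM in WT 1, 2 and 3. Its highest library was cKO 2 and its lowest WT 2, as for S100a11. Lgals1 is also on the effector Treg list, which was chosen with earlier results of these data known. Genes near these 3 members in profile share their difference between the groups by construction.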

How the data were processed

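RNA of FACS-sorted splenic Treg was turned into SmartSeq2 libraries for Illumina sequencing, per the labels' protocols. The submitters' processing notes name FastQC, cutadapt and HISAT2 with the builds NCBIM37 and mm9. The authors deposited FPKM values for 36811 genes in 6 libraries, in a table whose name mentions cuffnorm. Tool versions, annotation, strandedness and filtering: not given in the sources used here. Symbols were matched for 31840 genes. In 58 rows with a median above 20 FPKM some library was at 0, so a 0 is given only as listed. No member had a 0.

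The 11979 genes averaging 1 FPKM or more entered a limma fit (version 3.58.1, R 4.3.3) of log2(FPKM + 1) values. It had a variance trend, no block, and Benjamini-Hochberg adjustment over all these genes. This scale understates changes of low genes. Ratios are of mean FPKM. No count test was run on FPKM. The scale from fragments to FPKM came from steps between low values of genes with 1 transcript, of which 1412 of 1518 gave whole multiples within 0.02, and the 254 of them with transcripts of 2000 bases or longer set it. It need not equal the number of fragments sequenced. In simulations of the cKO against WT comparison (11979 genes, of which 200 changed), limma recovered 29.1% of 2-fold changes (7.22% of calls false) and 85.4% of 4-fold changes (5.24% false), as means of 10 runs. The Benjamini-Hochberg cut depends on how many genes change, and in the measured libraries 3 genes passed. These rates therefore describe the simulated data and are not the power of the measured comparison. They need not hold for genes at low levels.

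The members and gene lists were chosen with earlier results of these data known. The named genes were the 10 members, further family genes averaging 1 FPKM or more, partners, Bach2, and the 5 genes, averaging 5 FPKM or more, nearest in profile to each of the 3 members with the smallest p. Near-identical copies were sought with BLAST 2.17.0 among GENCODE M21 transcripts at 90% identity over at least 200 bases. RefSeq on GRCm38.p6 gave promoters and gene order; the values are on an older build. Alternatives were other pseudocounts (0.1 and 5), filters (none and 5 FPKM), scalings (quantile, equal sums, trimmed mean), variance models, quality weights per library, a block for the replicate number, and leaving out each library. Python 3.11.15, pandas 2.3.3 and matplotlib 3.10.9 were used for tables and plots.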

Additional observations from a re-analysis of the deposited data

How the results depend on the processing

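All alternatives were planned. No member, other family gene or partner passed an adjusted p of 0.05 in any of the 17 fits, and 4 to 6 members had an unadjusted p under 0.05. S100a4, S100a6, S100a10 and S100a11 kept a log2 difference above 0 and an unadjusted p under 0.05 in all 17. The members' median was 0.67 with equal sums of FPKM, a scaling that moved the median of all genes from 0.03 to 0.18. Relative to that median the members stood at 0.49, against 0.48 without the scaling. The count of 3 genes passing among all tested was 1 with a replicate block, and 5 to 15 when any 1 library was left out. Anxa1 had a log2 difference of 0.086 with equal sums and -0.62 with library quality weights, against -0.065. Without 1 library, Anxa1 ran from -0.34 to 0.28 and Anxa6 from -0.013 to 0.24. The cKO minus WT difference in the log2 ratio of Anxa2 to S100a10 then ran from -0.29 to 0.09. The cause was not tested.

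Whether libraries of the same number belong together is not given in the sources used here, and the main fit did not pair them. For libraries of the same number, deviations from the group means correlated at -0.06, -0.18 and -0.017. Each was below the highest correlation of another pair (0.13, 0.099 and 0.06). Deviations from a group's own mean depend on each other within the group, so these values cannot decide whether the libraries were paired. With the replicate block 5 members had an unadjusted p under 0.05, as without it.

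Few fragments stood behind the low annexins, about 44 to 123 for each Anxa4 value if its shortest coding transcript is taken and 77 to 230 for Anxa1.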
